A study of Mus musculus with 6 samples.

Results

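The genes described here are 8 Toll-like receptors (*Tlr1*, *Tlr2*, *Tlr4*, *Tlr6*, *Tlr7*, *Tlr8*, *Tlr9* and *Tlr13*), the co-receptor *Cd14* and the adaptor *Myd88*. They were taken by name from a table of 49585 rows, in which each of the 10 genes has 1 row. All 10 passed the filter on low values and were among the 14023 genes tested. The RNA came from bone marrow monocytes of Sykdel/del and Syk+/+ mice (n = 3 libraries each) that had received a high-fat diet for 8 weeks. Mice of both genotypes carried Rosa26CreER(T2)+/+, a tamoxifen-inducible Cre recombinase driven from a locus that is active in nearly all tissues, so the deletion of *Syk*, the gene of spleen tyrosine kinase, was not limited to monocytes. The study's line was on C57BL/6J. The study's methods began this diet at an age of 8 weeks and used male mice for work in vivo. They do not say whether the Syk+/+ mice were given tamoxifen or whether each library came from 1 mouse, and they give neither age nor sex for these libraries in particular. If several libraries shared a mouse, the spread behind the p-values may be technical.

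Toll-like receptors recognize conserved molecules of microbes. TLR1, TLR2, TLR4 and TLR6 act at the cell surface on lipopeptides and lipopolysaccharide, whereas TLR7, TLR8, TLR9 and TLR13 act in endosomes on nucleic acids. CD14 is a surface protein of monocytes that hands lipopolysaccharide to TLR4, and MyD88 is the adaptor through which all of these receptors signal to NF-kB and the MAP kinases. Monocytes are known as cells that carry many of these receptors.

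The promoters of the receptors with the highest levels per length (*Tlr13* and *Tlr9*), of 1 receptor with a low level (*Tlr1*) and of *Tlr2* are shown because they hold motifs of factors that act in monocytes or in this pathway. They are the 250 bases before a RefSeq transcription start in GRCm38, written in the direction of the gene. Capitals mark matches to PU.1 (GAGGAAG), AP-1 (TGACTCA) and the NF-kB consensus.
Tlr13: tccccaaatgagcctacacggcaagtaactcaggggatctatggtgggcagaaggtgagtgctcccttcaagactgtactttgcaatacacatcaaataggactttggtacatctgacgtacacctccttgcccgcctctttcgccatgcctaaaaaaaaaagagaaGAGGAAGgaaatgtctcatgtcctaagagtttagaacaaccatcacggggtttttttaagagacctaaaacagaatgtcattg
Tlr9: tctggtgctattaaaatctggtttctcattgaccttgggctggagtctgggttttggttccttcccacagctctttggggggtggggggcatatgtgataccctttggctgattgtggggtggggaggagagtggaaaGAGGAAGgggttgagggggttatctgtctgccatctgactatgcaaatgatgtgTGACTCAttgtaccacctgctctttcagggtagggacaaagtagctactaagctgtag
Tlr1: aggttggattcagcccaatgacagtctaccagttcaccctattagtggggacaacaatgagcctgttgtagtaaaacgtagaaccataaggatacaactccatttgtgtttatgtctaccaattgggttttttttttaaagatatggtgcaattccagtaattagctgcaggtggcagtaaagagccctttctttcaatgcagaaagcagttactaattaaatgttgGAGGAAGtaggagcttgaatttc
Tlr2: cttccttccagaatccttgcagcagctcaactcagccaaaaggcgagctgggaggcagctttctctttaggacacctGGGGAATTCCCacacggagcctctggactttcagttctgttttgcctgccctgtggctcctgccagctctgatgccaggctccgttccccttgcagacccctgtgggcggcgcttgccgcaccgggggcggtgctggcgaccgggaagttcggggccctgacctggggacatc
These windows lie at chrX:106143025-106143274 (+), chr9:106222348-106222597 (+), chr5:64933559-64933808 (-) and chr3:83841609-83841858 (-). The promoter table had 9 windows for 7 of the genes, and none was used here for *Tlr4*, *Tlr7* and *Cd14*. Both strands were searched. The PU.1 letters were found in 3 of the 9 windows and in 10.6% of 32851 windows of this length, beginning at base -83 of *Tlr13*, -112 of *Tlr9* and -23 of *Tlr1*, where -1 is the last base before the start. The AP-1 letters were found in 1 of the 9 windows (*Tlr9*, at base -58) and in 4.46% of all windows. The NF-kB consensus was found in 1 window, that of *Tlr2*, as overlapping matches, and in 3.9% of all windows. A further motif, the interferon response letters GAAA, any 2 bases and GAAA again, was found in 1 window each of *Tlr6* and *Myd88* and in 2.98% of all windows. The motifs were chosen with the sequences in view, and a match describes letters, not a bound site.

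The authors mapped the reads to GRCm38, and the positions given here are those of GENCODE M21 for that build. *Tlr1* (chromosome 5, 64924679 to 64933563) and *Tlr6* (chromosome 5, 64952031 to 64960097) lie next to each other on the minus strand, 18467 bp apart, and encode the alternative partners of TLR2. *Tlr8* (chromosome X, 167242696 to 167264329) and *Tlr7* (chromosome X, 167304929 to 167330558) are also neighbours on the minus strand, 40599 bp apart. *Tlr13* (106143204 to 106160493) lies elsewhere on chromosome X. *Tlr9* (106222598 to 106226883) and *Myd88* (119335934 to 119341411) share chromosome 9, and *Tlr2* and *Tlr4* lie on chromosomes 3 (83836272 to 83841767) and 4 (66827584 to 66930284). Of the 50-base stretches of *Tlr6* exons, 12.3% also occur in *Tlr1*, and 13.6% of those of *Tlr1* occur in *Tlr6*. The sources used here do not say how reads that match several genes were counted, so the split of reads between this pair is uncertain. Exons of *Myd88* overlap those of *Acaa1a* on the other strand over 290 bases, and the strand setting of the counting is likewise unknown here.

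Reads assigned to genes numbered 4168626 to 6254375 per library in Sykdel/del and 6805111 to 7071823 in Syk+/+. The values below are normalized counts, read counts multiplied by 1 factor per library and not divided by gene length. A single read was worth 1.04 to 1.56 normalized counts in Sykdel/del and 0.923 to 0.96 in Syk+/+. Sykdel/del replicate 1 stood apart, and Syk+/+ replicate 1 did so to a lesser degree. Compared over genes, the chi-square per degree of freedom of Sykdel/del replicate 1 was 10.7 and 12.1 against the other libraries of its genotype. Those were at 2.46 from each other. Syk+/+ replicate 1 was at 7.94 and 6.21 against the other Syk+/+ libraries, which were at 3.85 from each other. *Syk* itself was at 4867 ± 201 normalized counts in Sykdel/del and 5139 ± 587 in Syk+/+ (SD, n = 3 libraries each). The exons that remain can still be counted for the gene, and the genotype labels are therefore not checked by this level.

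The endosomal receptors *Tlr13* and *Tlr9* had the highest levels of the 10 genes once the counts were divided by exonic length. *Tlr13*, which senses bacterial ribosomal RNA in the mouse and has no human counterpart, had a mean over the 6 libraries of 466 normalized counts per kb (range 426 to 497), at the 96.1 percentile of 13666 genes with a length. *Tlr9*, the receptor for unmethylated CpG DNA, followed at 303 per kb (range 261 to 333). These ranges did not overlap, so the order of this pair was the same in any library of either genotype. *Tlr2* at 223 per kb (range 182 to 263) and *Tlr8* at 214 (range 194 to 235) came next, and *Tlr2* was above *Tlr8* in 3 of the 6 libraries, so their order is not settled by these data. *Tlr8* was above *Tlr7*, the receptor for single-stranded RNA, with no overlap between their ranges. *Tlr7* (128 per kb, range 92.5 to 154) and *Myd88* (128 per kb, range 118 to 133) were again level, with *Tlr7* above in 3 of 6 libraries. *Cd14* was at 81.2 per kb and had the widest relative range of the 10, 44.2 to 123. The receptors *Tlr6*, *Tlr1* and *Tlr4* were lowest, at 42.8, 40.7 and 40.6 per kb, with overlapping ranges, yet still at the 57.2 to 58.3 percentile of genes. Per kb, *Tlr2* was thus several times above each of its partners and above *Tlr4* in every library.

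**Figure D1:**
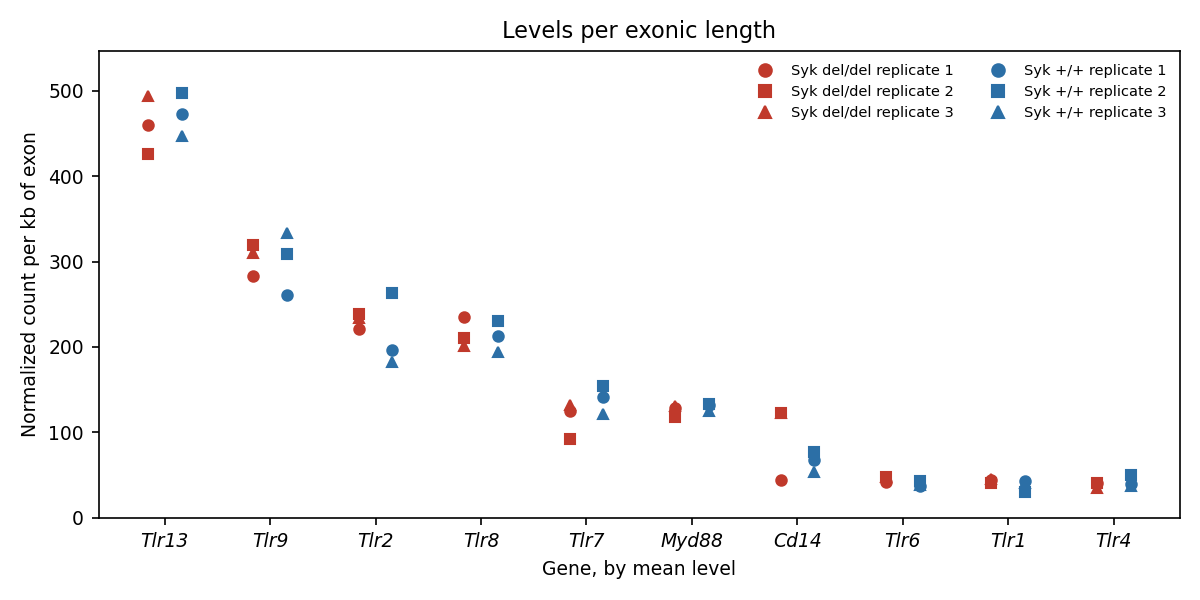
Normalized count per kb of exon (vertical axis, linear) of each of the 10 genes in the 6 libraries, with genes ordered by their mean; red points are the 3 Sykdel/del libraries and blue points the 3 Syk+/+ libraries. *Tlr13* lies above all others, at 426 to 497 per kb, and *Tlr6*, *Tlr1* and *Tlr4* have means of 40.6 to 42.8 per kb.

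The makeup of the receptor set was similar in both genotypes. The 4 endosomal receptors took 76.1%, 74.0% and 75.8% of the summed level per kb of the 8 receptors in Sykdel/del, against 77.4%, 75.5% and 78.6% in Syk+/+. The Sykdel/del shares overlapped those of Syk+/+. The summed level of the 8 receptors was 1450, 1417 and 1500 normalized counts per kb in Sykdel/del, against 1405, 1578 and 1393 in Syk+/+, and the genotypes overlapped here as well.

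Whether loss of SYK, a kinase that relays signals of other immune receptors, went with altered levels of these genes was asked by fitting limma to all 14023 genes. By limma none of the 10 genes passed an adjusted p of 0.05, whereas 52 of all genes did (0.371%), 49 lower (0.349%) and 3 higher (0.0214%) in Sykdel/del. At an unadjusted p under 0.05 the count was 0 of 10 by limma and 0 of 10 by limma-voom on the recovered reads, against 5.26% of all genes by limma. With 1 library left out, *Cd14*, *Tlr7* or *Tlr2* fell under 0.05 unadjusted in 4 of the 6 fits by limma, as given with each gene. The Sykdel/del and Syk+/+ libraries overlapped for each of the 10 genes, while 10.1% of all genes showed no overlap. The estimate was above 0 for 6 genes and below 0 for 4, with a median log2 fold change of 0.02, against 0.00 over all genes tested. For 9 of the 10, all but *Cd14*, the 95% interval of the difference in this fit lay within a 1.5-fold change in either direction, which bounds the size of a difference without showing that the levels were equal. Under some alternatives the bound did not hold for all 9. With thinned reads the interval on the log2 scale was -0.72 to 0.03 for *Tlr7* and -0.05 to 0.68 for *Tlr1*. All fold changes are Sykdel/del over Syk+/+ on the log2(x + 1) scale. The RNA is of bulk samples, in which fewer cells of a type and less RNA per cell cannot be told apart.

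**Figure D2:**
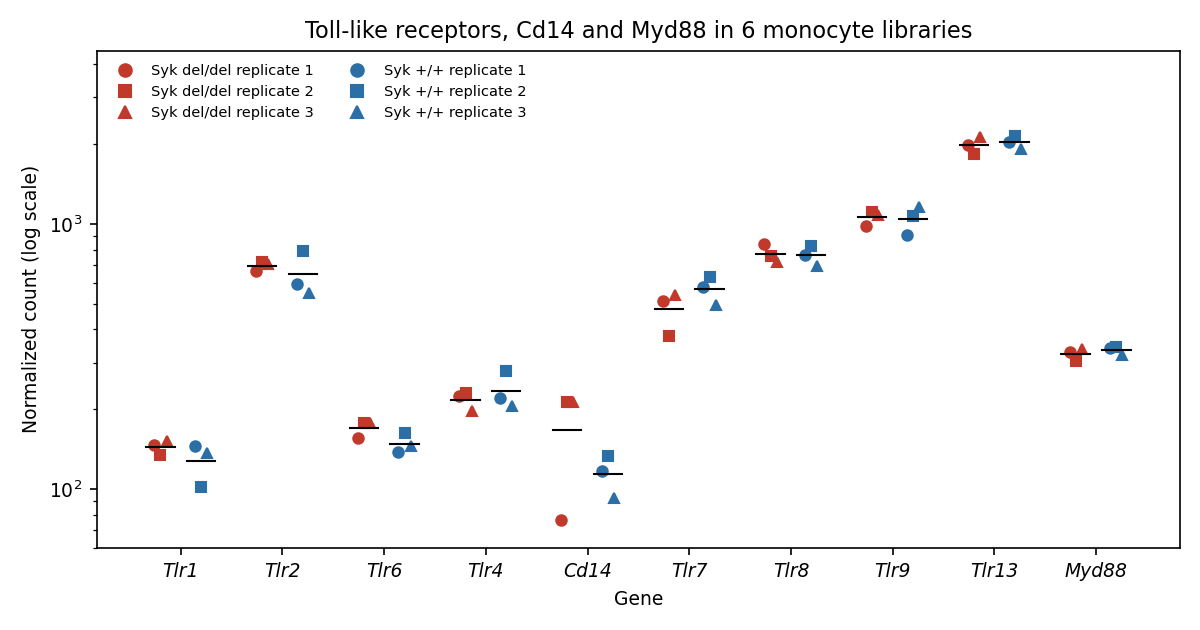
Normalized count (vertical axis, log scale) of the 10 genes in each library, with the 3 Sykdel/del libraries in red to the left of the 3 Syk+/+ libraries in blue; symbols mark the replicate and bars the mean. The genotypes overlap for each gene, and *Cd14* in Sykdel/del replicate 1 (76.5) lies below the other 5 libraries.

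**Figure D3:**
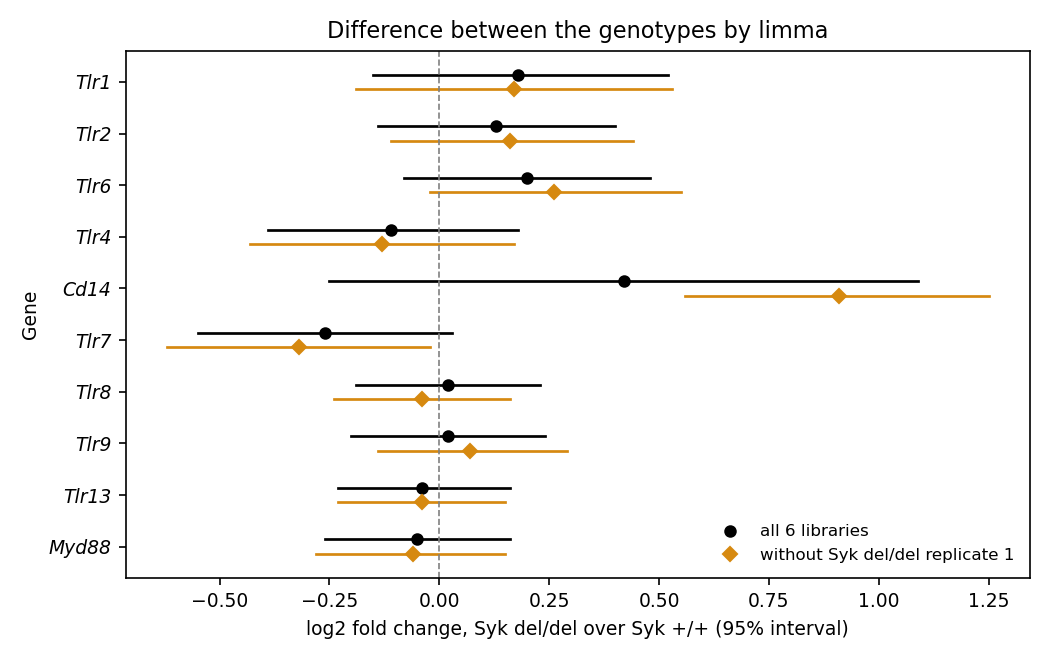
Log2 fold change of Sykdel/del over Syk+/+ from limma with its 95% interval (horizontal axis) for each of the 10 genes, with all 6 libraries (black circles) and without Sykdel/del replicate 1 (orange diamonds). With all libraries each interval includes 0, and without that replicate the interval of *Cd14* is 0.56 to 1.25.

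TLR2 forms pairs with TLR1 for triacylated and with TLR6 for diacylated lipopeptides, and the estimates for all 3 genes lay slightly above 0. *Tlr2* had 665.1, 719.8 and 705.4 normalized counts in Sykdel/del, against 593.8, 793.1 and 548.1 in Syk+/+. The highest and the lowest values were both Syk+/+ libraries, and the Sykdel/del libraries lay between them. The log2 fold change was 0.13 (standard error, SE, 0.12, 95% interval -0.14 to 0.40, unadjusted p = 0.31 and limma adjusted p = 1). It was 0.29 without Syk+/+ replicate 2 (95% interval 0.06 to 0.52, unadjusted p = 0.018 and limma adjusted p = 1) and 0.02 without Syk+/+ replicate 3. *Tlr1* had 146.3, 134.6 and 151.4 normalized counts in Sykdel/del, against 145.9, 101.8 and 136.6 in Syk+/+. Only Syk+/+ replicate 2 was well below the others, and the remaining 5 libraries were close together. Its log2 fold change was 0.18 (SE 0.16, 95% interval -0.15 to 0.52, limma adjusted p = 1), and it was 0.03 without Syk+/+ replicate 2 and 0.29 without Syk+/+ replicate 1. *Tlr6* had 156.3, 177.4 and 177.9 normalized counts in Sykdel/del, against 137.5, 162.3 and 144.9 in Syk+/+. A single crossing, Syk+/+ replicate 2 above Sykdel/del replicate 1, kept the genotypes from separating. Its log2 fold change was 0.20 (SE 0.13, 95% interval -0.08 to 0.48, unadjusted p = 0.14 and limma adjusted p = 1).

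*Tlr4*, the receptor for lipopolysaccharide, had 223.9, 229.5 and 196.6 normalized counts in Sykdel/del, against 220.7, 278.5 and 204.8 in Syk+/+. Syk+/+ replicate 2 was the highest and Sykdel/del replicate 3 the lowest, with the rest intermixed. The log2 fold change was -0.11 (SE 0.13, 95% interval -0.39 to 0.18, limma adjusted p = 1), and it was 0.02 without Syk+/+ replicate 2.

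*Cd14* was the gene among the 10 with the largest estimate and the widest spread. It had 76.5, 212.8 and 212.2 normalized counts in Sykdel/del, against 116.9, 133.5 and 92.3 in Syk+/+. Sykdel/del replicate 1 was the lowest of all 6 libraries and the other Sykdel/del libraries were the highest, 2.78-fold and 2.77-fold above it. The mean was 167.2 ± 78.5 in Sykdel/del and 114.2 ± 20.7 in Syk+/+ (SD, n = 3 libraries each), a coefficient of variation of 47.0% in Sykdel/del and 18.1% in Syk+/+. The log2 fold change was 0.42 (SE 0.31, 95% interval -0.25 to 1.09, unadjusted p = 0.20 and limma adjusted p = 1). Without Sykdel/del replicate 1 it was 0.91 (SE 0.16, 95% interval 0.56 to 1.25, limma adjusted p = 0.017), and *Cd14* was then 1 of 92 genes called among 13645 tested (0.674%). With any other single library left out *Cd14* was not called.

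Several early response genes were low and high in the same Sykdel/del libraries as *Cd14*, but not all of them were high beside Syk+/+. These genes, whose transcripts appear within minutes of a stimulus, were picked for this comparison after their values had been seen. *Fos*, which encodes a subunit of AP-1, had 2497.3, 9575.0 and 9051.5 normalized counts in Sykdel/del, against 3518.0, 6035.7 and 4407.9 in Syk+/+. *Atf3*, a stress-induced transcription factor, had 77.6, 986.9 and 738.2 in Sykdel/del, against 143.1, 223.7 and 185.5 in Syk+/+. For both genes, as for *Cd14*, Sykdel/del replicate 1 was the lowest of the 6 libraries and the other Sykdel/del libraries were the highest. *Ptgs2*, which encodes cyclooxygenase-2, had 3.3, 39.6 and 29.7 in Sykdel/del, against 1.9, 4.8 and 5.5 in Syk+/+. *Jun* differed in that Syk+/+ replicate 2 was the highest, with 644.0, 2882.5 and 2818.5 in Sykdel/del, against 1198.8, 2997.7 and 1776.3 in Syk+/+. None of these 4 genes passed with all libraries (adjusted p of 0.72 to 1 from limma). Without Sykdel/del replicate 1, *Fos* (log2 fold change 1.04, adjusted p = 0.0085), *Atf3* (2.23, adjusted p = 1.5e-05) and *Ptgs2* (2.88, adjusted p = 0.009) were called higher by limma. *Jun* (0.62, adjusted p = 0.48), *Dusp1* (0.76, adjusted p = 0.39) and *Zfp36* (0.45, adjusted p = 0.33), which are early response genes too, were not. These genes and the fit shown were picked from the same values, so the calls do not test the pattern. *Dusp1*, a phosphatase of MAP kinases, was like *Jun* highest in Syk+/+ replicate 2, with 575.3, 3336.3 and 3221.1 in Sykdel/del, against 1204.5, 3365.5 and 1770.7 in Syk+/+. Within Syk+/+, *Fos*, *Atf3*, *Ptgs2*, *Jun* and *Dusp1* were lowest in replicate 1, whereas *Cd14* was lowest in replicate 3 (92.3). The likeness of *Cd14* to these genes was thus limited to the Sykdel/del libraries. Also picked with their values seen, *Nr4a1* (log2 fold change -0.73), *Nfkbiz* (-0.51) and *Socs3* (-1.12) were lowest in Sykdel/del replicate 1 too. Their estimates with all libraries were below 0, and none passed (adjusted p of 0.6 to 0.84 from limma). Over the whole list of 14 transcription factors of the pathway, the summed normalized count was 14651.5, 26491.5 and 25537.7 in Sykdel/del, against 17657.2, 22388.7 and 20237.5 in Syk+/+, and of these 14 genes none passed. The sum includes *Fos*, *Jun* and *Atf3* and its swing rested mostly on them, so it does not describe the rest of the list. The part of the early response in the values of *Cd14* was not tested.

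**Figure D4:**
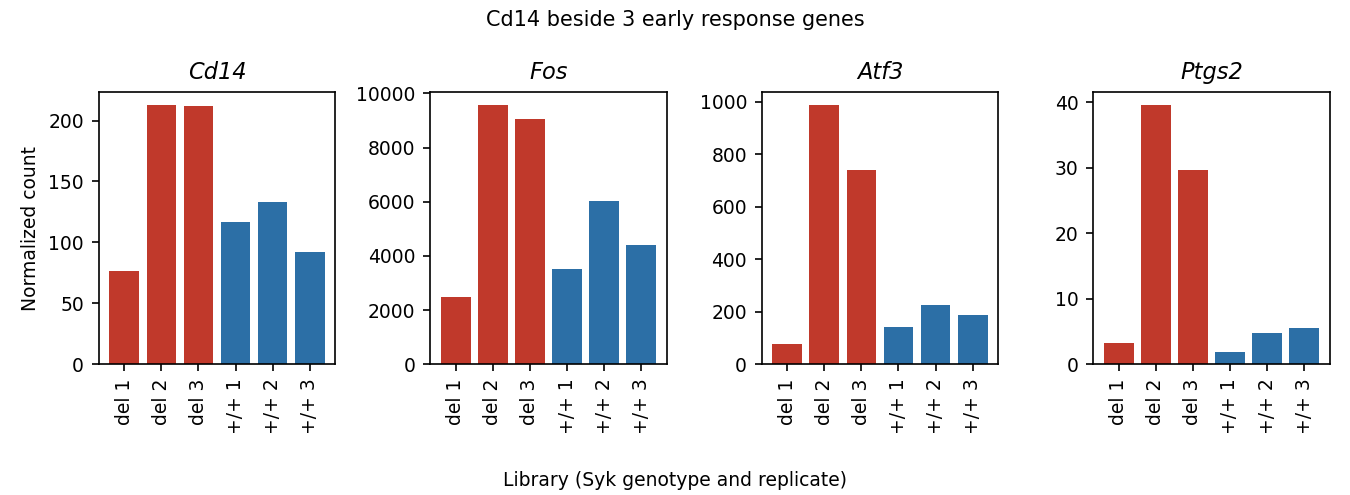
Normalized count (vertical axes, each from 0) of *Cd14*, *Fos*, *Atf3* and *Ptgs2* in the 3 Sykdel/del libraries (red) and the 3 Syk+/+ libraries (blue). In Sykdel/del replicates 2 and 3 each of the 4 genes is above all Syk+/+ libraries, and in Sykdel/del replicate 1 *Cd14* (76.5), *Fos* (2497.3) and *Atf3* (77.6) are below them.

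The genes whose profile over the 6 libraries was most like that of *Cd14* were *Ifrd1*, *Trp53inp2* and *Klf6*, out of 7442 genes with a mean normalized count of 100 or more. Their root mean square difference from it in centred log2 values was 0.195, 0.205 and 0.229, where *Cd14* itself spread by 0.552. *Klf6*, a zinc finger transcription factor, had 1570.7, 2771.9 and 2812.2 normalized counts in Sykdel/del, against 1870.3, 2192.1 and 1676.6 in Syk+/+. For *Tlr7* the closest genes were *Klhl9* (0.075), *Pag1* (0.092) and *Ptger4* (0.092), where *Tlr7* spread by 0.231. The closest genes of the other 8 were at 0.019 to 0.083, against spreads of their own of 0.06 to 0.19. These profiles are a description over 6 libraries, which the genes share together with their depth.

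Of the endosomal receptors, *Tlr7* came nearest to a difference, and *Tlr8*, *Tlr9* and *Tlr13* had estimates close to 0. *Tlr7* had 512.1, 377.7 and 540.0 normalized counts in Sykdel/del, against 577.9, 629.9 and 493.7 in Syk+/+. Sykdel/del replicate 2 was the lowest and Syk+/+ replicate 2 the highest, and Syk+/+ replicate 3 lay below the remaining Sykdel/del libraries. The mean was 476.6 ± 86.8 in Sykdel/del and 567.2 ± 68.7 in Syk+/+ (SD, n = 3 libraries each), for a log2 fold change of -0.26 (SE 0.14, 95% interval -0.55 to 0.03, unadjusted p = 0.077 and limma adjusted p = 0.991). Without Sykdel/del replicate 2 it was -0.10, and without Sykdel/del replicate 3 or Syk+/+ replicate 3 it was -0.36, with unadjusted p-values of 0.031 and 0.035 and adjusted p-values of 0.77 and 0.98 from limma. Without Sykdel/del replicate 1 it was -0.32 (unadjusted p = 0.037, limma adjusted p = 0.54).

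*Tlr8*, the neighbour of *Tlr7*, whose human counterpart senses single-stranded RNA, had an estimate near 0. It had 842.4, 755.3 and 719.4 normalized counts in Sykdel/del, against 764.0, 824.8 and 693.9 in Syk+/+. The libraries were intermixed, and the log2 fold change was 0.02 (SE 0.10, 95% interval -0.19 to 0.23, limma adjusted p = 1). The difference between the changes of *Tlr7* and *Tlr8* was not tested. *Tlr9* had 983.2, 1110.0 and 1079.9 normalized counts in Sykdel/del, against 906.1, 1075.4 and 1158.0 in Syk+/+. The Sykdel/del libraries fell inside the range of Syk+/+, with a log2 fold change of 0.02 (SE 0.10, 95% interval -0.20 to 0.24, limma adjusted p = 1). *Tlr13*, the most counted of the 10 genes, had 1980.8, 1835.1 and 2125.6 normalized counts in Sykdel/del, against 2033.9, 2138.3 and 1924.8 in Syk+/+. Ranked by level, the libraries of the genotypes alternated. The log2 fold change was -0.04 (SE 0.09, 95% interval -0.23 to 0.16, limma adjusted p = 1). The estimates of *Tlr8*, *Tlr9* and *Tlr13* turned to the other sign when single libraries were left out, within -0.09 to 0.10.

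*Myd88*, the adaptor shared by the receptors, varied least of the 10 genes over the 6 libraries. It had 329.2, 303.6 and 337.1 normalized counts in Sykdel/del, against 339.5, 342.8 and 321.1 in Syk+/+. Sykdel/del replicate 2 was the lowest, and the other 5 libraries lay close together. The mean was 323.3 ± 17.5 in Sykdel/del and 334.5 ± 11.7 in Syk+/+ (SD, n = 3 libraries each), for a log2 fold change of -0.05 (SE 0.10, 95% interval -0.26 to 0.16, limma adjusted p = 1).

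Around these 10 genes, 116 others of the pathway were followed in 7 lists by role, of which 110 were tested. Of the 110, 3 were lower, 1 was higher and 106 did not pass (3.64% called, against 0.371% of all genes), with a median log2 fold change of -0.06, against 0.00 over all genes tested. The lists were chosen with earlier results of these data known, so the higher share called does not show an enrichment of the pathway. Among 4 other Toll-like receptors none passed, and *Tlr11*, which senses protozoan profilin, came nearest (log2 fold change 0.65, limma adjusted p = 0.95). Of 13 genes of receptor trafficking and processing none passed. The estimate for *Unc93b1*, the chaperone that carries the endosomal receptors, was 0.06 on the log2 scale (limma adjusted p = 1), and that for *Lgmn*, a protease of endosomes, was -0.34 (limma adjusted p = 0.56). Of the 14 transcription factors, *Nfkb2* had the smallest p (log2 fold change -0.35, limma adjusted p = 0.49). In these 3 lists without a call, 0, 1 and 2 genes had an unadjusted p under 0.05 by limma, in the order given (5.26% of all genes). Limma-voom called 0 in each list.

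The 4 called genes were a receptor partner, an adaptor, a target and an inhibitor. *Cd36*, a scavenger receptor that passes ligands to TLR2 and 1 of 7 receptor partners, had 79.8, 83.5 and 87.4 normalized counts in Sykdel/del, against 232.8, 290.9 and 135.6 in Syk+/+. It was lower in Sykdel/del with no overlap (log2 fold change -1.32, SE 0.22, limma adjusted p = 0.022), and it is also a marker of non-classical monocytes. *Pik3ap1*, an adaptor that links Toll-like receptors to phosphoinositide 3-kinase and 1 of 26 adaptors and kinases, had 392.4, 394.4 and 457.3 in Sykdel/del, against 688.3, 1028.4 and 707.7 in Syk+/+. It was also lower with no overlap (log2 fold change -0.94, SE 0.14, limma adjusted p = 0.011), whereas *Irak4*, the kinase that binds MyD88, did not pass (log2 fold change -0.18, adjusted p = 0.97). Of 22 tested targets of the pathway, *Il1b*, the gene of interleukin-1 beta, was lower. It had 13.3, 21.9 and 21.8 in Sykdel/del, against 50.5, 75.9 and 52.6 in Syk+/+ (log2 fold change -1.61, SE 0.27, limma adjusted p = 0.023). The target *Tnf* did not pass (log2 fold change -0.38, adjusted p = 0.97), and *Il12b*, *Cxcl1* and *Ifnb1* were listed at 0 in all 6 libraries. Among 24 inhibitors, *Rnf144b*, a ubiquitin ligase, was higher, with 816.9, 786.6 and 708.5 in Sykdel/del, against 592.9, 519.5 and 478.0 in Syk+/+ (log2 fold change 0.54, SE 0.10, limma adjusted p = 0.044). Of the 16 alternatives, *Pik3ap1* kept its call in 12, *Il1b* in 10, *Cd36* in 9 and *Rnf144b* in 6. Each of the 4 calls ended without Syk+/+ replicate 2 and also without Sykdel/del replicate 2, with limma adjusted p-values between 0.053 and 0.24. The call of *Cd36* also ended without Syk+/+ replicate 1 (0.16) or Sykdel/del replicate 3 (0.051), that of *Il1b* without Syk+/+ replicate 1 (0.096) or 3 (0.072), and that of *Rnf144b* when any library but Sykdel/del replicate 1 was left out (0.052 to 0.24). All 4 calls also ended when the variance did not follow the mean and with thinned reads, and those of *Cd36* and *Rnf144b* in limma-voom.

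Markers of the cells that carry these receptors were read beside them. *Ly6c2* and *Csf1r*, markers of monocytes, were at 7332 ± 916 and 6686 ± 316 normalized counts in Sykdel/del and at 6842 ± 561 and 7983 ± 971 in Syk+/+ (SD, n = 3 libraries each), while *Ly6g* of mature neutrophils was at most 4.4 in any library and *Ms4a1* of B cells was listed at 0 in all. Other genes of these lists were well counted. The granule genes *Mmp8*, *Prtn3* and *Mpo* of neutrophil precursors ranged from 498.3 to 1040.8, from 649.1 to 863.1 and from 554.0 to 856.8 normalized counts over the 6 libraries. *Ltf*, another granule gene, had 320.3, 51.1 and 45.3 in Sykdel/del, against 190.8, 26.9 and 86.7 in Syk+/+, and was thus highest in Sykdel/del replicate 1, as was *Ngp* (321.4). Within Syk+/+, *Ltf* (190.8) and *Ngp* (220.7) were likewise highest in replicate 1. *Jchain*, the joining chain of secreted antibodies, had 420.1, 460.1 and 579.0 in Sykdel/del, against 359.1, 217.0 and 183.6 in Syk+/+ (log2 fold change 0.99, limma adjusted p = 0.063). The summed neutrophil list was at 3157.2 to 4542.2 in Sykdel/del, against 2865.2 to 3954.8 in Syk+/+, and the B and plasma cell list at 1949.6 to 2117.8 in Sykdel/del, against 1589.9 to 1875.9 in Syk+/+. Most of the B and plasma cell sum was *Xbp1*, with means of 1419 in Sykdel/del and 1404 in Syk+/+. The gap between the genotypes in that sum rested on *Jchain*. Non-classical monocyte markers numbered 16, of which 11 passed as lower in Sykdel/del (0.349% of all genes) and none as higher (0.0214% of all genes). Their sums were 11352.8 to 13735.0 in Sykdel/del, against 17235.4 to 23756.9 in Syk+/+. Of 11 genes of classical monocytes none passed, with sums of 158466.6 to 181074.3 in Sykdel/del, against 139702.5 to 153542.9 in Syk+/+. The gap between these sums rested on *Fn1*, the gene of fibronectin, and without it, a choice made after its values were seen, they overlapped, at 67341.1 to 78365.9 in Sykdel/del and 62113.6 to 72887.4 in Syk+/+. Plasmacytoid dendritic cells are rich in TLR7 and TLR9. Of 7 tested genes of these cells none passed, with sums of 1593.9 to 1671.4 in Sykdel/del, against 1615.0 to 1788.3 in Syk+/+, and *Siglech* was at 9.07 ± 1.14 in Sykdel/del and 10.6 ± 2.73 in Syk+/+. *Tcf4*, *Runx2*, *Clec10a* and *Bst2* made up most of these sums (means of 245.4 to 639.1 over the 6 libraries). The other genes of the list had means of 0 to 20.7, so the sums do not measure the share of these cells. Of 13 genes of resident macrophages 1, *C1qc*, was lower by adjusted p. At an unadjusted p under 0.05 by limma 9 of them were lower and 0 higher, against 3.32% lower and 1.94% higher of all genes. Their median log2 fold change was -0.82, with sums of 2399.4 to 2885.5 in Sykdel/del, against 3186.9 to 3540.3 in Syk+/+. None passed of 14 genes of neutrophils, 8 of conventional dendritic cells, 8 of B and plasma cells, 6 of T and NK cells, 11 of erythroid cells, 4 of megakaryocytes and 9 of stromal and endothelial cells, and limma-voom called 0 in each list without a call by limma. At an unadjusted p under 0.05 by limma, 1 gene of classical monocytes was lower and 1 higher, and 1 of plasmacytoid dendritic cells was lower. In the remaining lists without a call these numbers ran up to 4 lower (stromal and endothelial cells) and 3 higher (B and plasma cells). The part of these lists in the levels of the 10 genes was not tested.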

How the data were processed

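RNA was measured in bone marrow monocytes, isolated with a kit that removes other cells, in 3 Sykdel/del and 3 Syk+/+ libraries grouped by the labelled genotype. The authors made directional libraries after rRNA removal, mapped reads to GRCm38/mm10 and counted them for genes with CLC Genomics Workbench. The sources used here do not give its version, annotation, strand setting or treatment of reads with several matches. Values were deposited on a log2 scale, as log2(x + 1). The methods name TPM, but every x was a whole number of reads (to within 0.06 of a read) times a factor particular to its library, which allowed the reads to be recovered. The deposited p-value column holds the authors' own comparison of the genotypes and was not used.

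Limma 3.58.1 in R 4.3.3, with a variance trend in eBayes, was fitted to the log2 values of the 6 libraries over 14023 genes with x of at least 1 in at least 3 libraries, with Benjamini-Hochberg adjustment and a threshold of 0.05. The fit was tested on simulated data. Fold changes on log2(x + 1) understate the change of low genes. Levels per kb use exonic lengths of GENCODE M21. Promoter windows are from RefSeq (GRCm38.p6). The 10 genes and all lists were chosen with earlier results of these data known, so no p is given over a list. Some items are not reported here. Genes named are the 10, the called genes and examples of the 4 smallest p per pathway list (mean of at least 10), markers, the 3 profiles closest to a gene, and genes marked as picked after their values were seen. *Unc93b1*, *Tnf* and *Syk*, and the markers *Ly6c2*, *Csf1r*, *Ly6g*, *Siglech*, *Bst2*, *Ms4a1*, *Ltf* and *Ngp*, may fall outside that rule and were also named with values known. Alternatives were 2 other normalizations, limma-voom on recovered reads, 2 pseudocounts, 2 filters, no trend, thinned reads, a replicate block and leaving out each library.

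No strong pairing of the libraries by replicate number was seen, and the check is given with the alternatives. Counts of 4168626 to 7071823 reads per library limit precision most for low genes.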

Additional observations from a re-analysis of the deposited data

How the results depend on the processing

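None of the 10 genes was called under 15 of the 16 alternatives, and without Sykdel/del replicate 1 the count was 1, *Cd14* at a log2 fold change of 0.91 (adjusted p = 0.017 from limma). Over the 6 settings that leave out a library, the count of called genes among the 10 was 0 to 1 and the log2 fold change of *Cd14* was 0.17 to 0.91. Of 160 estimates of single genes under the alternatives, 152 kept their direction and side of the threshold and 7 changed sign, all of them close to 0. Leaving out libraries gave 0.03 to 0.29 for *Tlr1*, 0.02 to 0.29 for *Tlr2*, -0.09 to 0.02 for *Tlr13*, -0.20 to 0.02 for *Tlr4*, -0.04 to 0.08 for *Tlr8* and -0.08 to 0.10 for *Tlr9*, and thinned reads gave -0.01 for *Tlr8*. The 52 genes called among all genes became 33 by limma-voom, 6 without the trend, 0 with thinned reads and 4 to 92 when a library was left out (92 without Sykdel/del replicate 1, 18 without Sykdel/del replicate 2, and 10, 4 and 34 without Syk+/+ replicates 1, 2 and 3). The cause was not tested. With the replicate number as a block 53 genes and 0 of the 10 were called. No strong pairing by number was seen, since same-numbered libraries correlated at 0.034 to 0.079 in their deviations over 8769 genes. Every library but Syk+/+ replicate 3 correlated best with its own number, so a weak pairing is not settled by this check. With 3 libraries per genotype, differences of the 10 genes smaller than their intervals were not detectable. A call by adjusted p needed a larger difference than an interval without 0 does. *Rnf144b*, with an SE of 0.10, had a log2 fold change of 0.54 and passed narrowly (limma adjusted p = 0.044).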
